A study of Homo sapiens with 2 samples.

Results

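Kinesins are motor proteins that walk along microtubules on the energy of ATP. The genes described here are the members of the KIF and KIFC families, taken as every row of the deposited table whose whole name is KIF followed by a number and optional letters, or KIFC followed by a number. The rule found 42 of the 32742 genes in the table. It left out KIFAP3, which encodes an accessory subunit, the antisense genes KIF9-AS1 and KIF25-AS1, and CENPE, a centromere kinesin with another kind of name. The cells were WaGa, an established human Merkel cell carcinoma line that carries Merkel cell polyomavirus, with neuroendocrine features and growth in suspension. One culture had no treatment, and the other was given domatinostat, an inhibitor of class I histone deacetylases. Each condition had 1 single-cell library, made with 10x Genomics 3′ chemistry, and the sources used here give neither the dose, the time nor whether the control received the solvent. All values come from a single line and a single library per condition, so every comparison between conditions below is without replicates and without a test.

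The library labelled untreated held 4137 cells and 45562976 unique molecular identifiers (UMIs, each standing for 1 captured transcript), against 6679 cells with 60160108 UMIs in the library labelled treated. The median depth per cell was 11125 and 8578 UMIs. The ending of each cell name gave its condition, and 48 barcodes occurred in both libraries. Among 8 Merkel and neuroendocrine markers, all were detected. Levels are given as CPM, the UMIs of a gene over all UMIs of its library on the usual scale of that name. The markers had a summed level of 1819 CPM labelled untreated and 2207 CPM labelled treated. CHGA held the largest part, at 886 CPM labelled untreated and 1221 CPM labelled treated. In the same order, KRT20 had 295 and 248 CPM and ENO2 had 116 and 109 CPM. Both were lower labelled treated, and the other markers of this list were higher. Of the markers of other cell types, the T cell genes CD3D and CD2, the B cell gene MS4A1, the melanocyte gene TYR and the erythroid gene HBB were at 0 UMIs in both. Other members of these lists were detected. Labelled untreated and labelled treated, the B cell gene CD79A had 194 and 74 UMIs. The melanocyte gene PMEL had 141 and 21, and the erythroid gene HBA1 had 63 and 28. The myeloid markers CD14, LYZ and CD68 summed to 131 and 94 UMIs. The keratinocyte markers summed to 403 and 359 CPM, most of it from KRT10, the fibroblast markers to 29.3 and 17.9 CPM, most of it from DCN, and the endothelial markers to 6.6 CPM in each library, nearly all from CLDN5. Their part in the results was not tested. CDKN1A, a cell cycle inhibitor gene whose induction is typical of this drug class, was lower in the library labelled treated, at 97.9 and 39.4 CPM. Directions therefore follow the labels and are given as such. Where 2 values stand together below, the first belongs to the library labelled untreated and the second to the library labelled treated.

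As background, kinesins fall into groups by what they carry. Mitotic kinesins build the spindle, move or orient chromosomes and finish cell division, and their transcripts are known to accumulate late in the cell cycle. Transport kinesins carry vesicles, mitochondria and other cargo along microtubules, above all over the long distances of axons and dendrites, and several of them are most abundant in neurons. A further set works in cilia, some of them in hedgehog signalling. In a neuroendocrine tumour line that divides and also makes secretory granules, genes of each kind can be expressed together. The 42 members comprised 14 mitotic, 17 transport and 6 cilia and hedgehog kinesins and 5 others.

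Of the 42 kinesins, 34 had at least 50 UMIs over both libraries and were given a ratio. The ratio is the CPM in the library labelled treated over that in the library labelled untreated, with a 95% exact (Clopper-Pearson) interval that covers counting error only. The other 8 had too few UMIs. KIF26B had 12 and 14 UMIs, KIFC3 had 12 and 12, KIF17 had 17 and 8, and KIF4B had 9 and 14. KIF6 had 9 and 5, KIF21B had 5 and 2, KIF13A had 2 and 1, and KIF2B, a mitotic kinesin best known from testis, had 0 in both. A count of 0 allows up to 0.0658 and 0.0499 CPM, at the limit of 3 UMIs. KIF4B is a near copy of KIF4A, so its few UMIs cannot be assigned with certainty. Just inside the minimum stood KIF7 with 53 UMIs, and just outside it KIF26B with 26.

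The mitotic kinesins were higher in the library labelled treated, whereas the transport kinesins as a group were nearly level and held the largest well-counted decrease, that of KIF5C. Of 12 measured mitotic kinesins, 12 had a ratio above 1, where 47.4% of all 13958 genes with at least 50 UMIs did. All 12 intervals lay above 1, as did 28.5% of those over all genes. The median log2 ratio was 0.35 for the mitotic kinesins, -0.01 for the 13 measured transport kinesins and -0.02 over all genes. Summed over members, mitotic kinesins went from 459.8 to 589.6 CPM, a ratio of 1.28 (95% interval 1.26 to 1.30). Transport kinesins went from 781 to 744 CPM, a ratio of 0.952 (0.939 to 0.966). For every 100 UMIs of transport kinesins there were thus 58.9 and 79.3 UMIs of mitotic kinesins. The difference of the medians, mitotic minus transport, was 0.36 on the log2 scale.

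The counts past 1.5-fold were taken over all cells. In the library labelled treated, 2 of 34 were at least 1.5-fold higher, KIF15 and KIF24, beside 3.77% of all genes. This count depended on the cells used: it was 4 in thinned cells and 13 in cells of 7000 to 12000 UMIs, a window chosen after seeing the data in which the mitotic median log2 ratio was 1.03. At least 1.5-fold lower were 6 of 34, namely KIF5C, KIF5A, KIF16B, KIF7, KIF12 and KIF25, beside 14.9% of all genes. The plot of ratios by group shows the mitotic kinesins to the right of 1 without exception and the 6 lower genes spread over the other 3 groups.

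**Figure D1:**
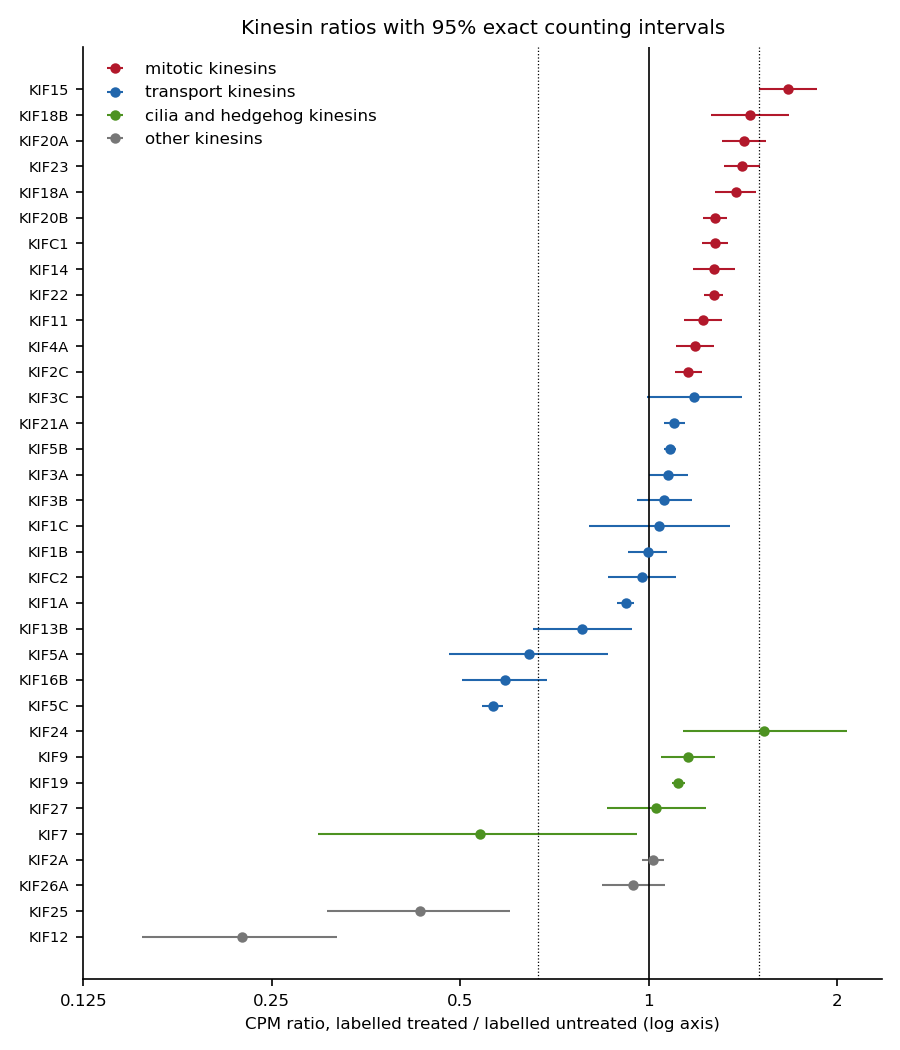
Each point is the CPM ratio, labelled treated over labelled untreated, for 1 of the 34 kinesins with at least 50 UMIs, on a log axis, with its 95% exact counting interval; the solid line marks 1 and the dotted lines 1.5-fold either way. All 12 mitotic kinesins lie between 1.16 and 1.67, while the transport kinesins run from 0.564 for KIF5C to 1.18 for KIF3C.

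Among the motors that build the bipolar spindle, KIF15 stood highest. KIF15 and KIF11 both push the spindle poles apart, and KIF11 is the main motor of this kind. KIF15 had 11.1 and 18.6 CPM, a ratio of 1.67 (1.5 to 1.85), the highest of all kinesins measured. KIF11 had 28.2 and 34.4 CPM, a ratio of 1.22 (1.14 to 1.31). The intervals of these 2 genes did not overlap. KIFC1, a motor that walks toward the minus end and gathers the poles of the spindle, had 59.4 and 75.8 CPM, a ratio of 1.28 (1.22 to 1.34).

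The kinesins that act on chromosomes and microtubule ends had ratios from 1.16 to 1.45. KIF2C, which takes microtubules apart at centromeres and so helps to correct wrong attachments, had 57.0 and 65.9 CPM and the lowest ratio of the mitotic group, 1.16 (1.10 to 1.22). KIF18A, which dampens the movements of chromosomes at the metaphase plate, had 23.5 and 32.3 CPM, a ratio of 1.38 (1.28 to 1.49). KIF18B, which works at the ends of astral microtubules, had 6.43 and 9.33 CPM, a ratio of 1.45 (1.26 to 1.68). These were the 2 members of one subfamily, and their intervals overlapped. KIF22 and KIF4A bind chromosome arms. KIF22 had 103.5 and 131.4 CPM, a ratio of 1.27, and KIF4A had 29.3 and 34.8 CPM, a ratio of 1.19.

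The kinesins of the central spindle and of cytokinesis were higher to a similar degree. KIF23, the motor subunit of the centralspindlin complex, had 30.5 and 42.9 CPM, a ratio of 1.41 (1.32 to 1.5). KIF20A, which brings the Aurora B complex to the midzone, had 19.4 and 27.5 CPM, a ratio of 1.42 (1.31 to 1.54). KIF20B had 68.9 and 88.0 CPM and a ratio of 1.28, and KIF14, which works with citron kinase at the midbody, had 22.4 and 28.5 CPM and a ratio of 1.27. RACGAP1, the partner of KIF23 in centralspindlin, did not follow it, with 37.6 and 35.3 CPM and a ratio of 0.940 (0.881 to 1.00).

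The partners of the mitotic kinesins came from a list of 27 spindle and midzone genes, all measured. Ratios were above 1 for 22 of these and below it for 5, where 47.4% of all genes were above. Beyond 1.5-fold were 2 upward and 0 downward, against 3.77% and 14.9% of all genes. The median log2 ratio was 0.26. The spindle protein gene SPAG5 led at 1.66 (1.51 to 1.83), followed by the cytokinesis gene ANLN at 1.57 (1.42 to 1.75). The lowest was HMMR, a microtubule-binding spindle gene, at 0.849 (0.808 to 0.893). CENPE, the centromere kinesin outside the naming rule, had 81.2 and 106.4 CPM and a ratio of 1.31 (1.26 to 1.36), inside the range of the 12 mitotic KIF genes. Of the general markers of proliferation, MKI67 and TOP2A both had ratios of 1.69, whereas the mitotic cyclin gene CCNB1 had a ratio of 0.728.

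The promoters of the kinesins were read for the pair of elements known from genes of late cell cycle. These are the cell cycle genes homology region (CHR), searched here as TTTGAA or TTCGAA, which the MuvB complexes bind, and the CCAAT box, searched as CCAAT, which NF-Y binds. Both strands were searched, TTCGAA reads the same on either strand, and a CCAAT word can share its last T with the first T of a CHR word. The sequences were RefSeq's, build GRCh38.p14, 300 bases long, from 250 before to 50 after each annotated start. Of the 42 kinesins, 34 matched an entry by symbol. At least 1 promoter held both elements in 10 of 14 mitotic kinesins and in 1 of 12 transport kinesins, KIF5B. Counted by promoter, these were 10 of 15 (66.7%) and 1 of 17 (5.88%), against 6.38% of all 35116 promoters. A CHR word alone was in 80.0% of the promoters of mitotic kinesins, 5.88% of those of transport kinesins and 16.4% of all, and a CCAAT word in 73.3%, 29.4% and 34.6%. The remaining mitotic genes were KIF15 with a CHR word only, KIF20A with CCAAT words only, and KIF2C and KIF2B with neither in this window. A match describes letters and not a bound site, and the study measured no binding. Whether a match bears on the ratio of a gene between the libraries was not tested.

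The 100 bases before the start are printed for the 6 mitotic kinesins whose CHR word lies upstream of an annotated start within that distance, and for 2 of the transport kinesins that hold no match, KIF16B and KIF21A, so that the layout can be compared. Capitals mark the CHR word, or its reverse complement TTCAAA, and the CCAAT word, or its reverse complement ATTGG. Each sequence runs 5′ to 3′ on the strand of the gene and ends at the base before the start.
KIF11, chr10:92593030-92593129, + strand: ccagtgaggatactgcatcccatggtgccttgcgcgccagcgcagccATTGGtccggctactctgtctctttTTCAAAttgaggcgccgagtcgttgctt
KIF18A, chr11:28108157-28108256, - strand: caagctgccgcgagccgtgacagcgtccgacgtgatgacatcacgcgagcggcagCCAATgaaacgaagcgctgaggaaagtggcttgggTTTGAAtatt
KIF4A, chrX:70290004-70290103, + strand: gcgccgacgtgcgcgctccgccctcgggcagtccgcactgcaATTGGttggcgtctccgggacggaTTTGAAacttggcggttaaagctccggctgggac
KIF22, chr16:29790651-29790750, + strand: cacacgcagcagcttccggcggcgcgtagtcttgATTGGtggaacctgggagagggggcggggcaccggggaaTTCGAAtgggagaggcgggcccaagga
KIF23, chr15:69414249-69414348, + strand: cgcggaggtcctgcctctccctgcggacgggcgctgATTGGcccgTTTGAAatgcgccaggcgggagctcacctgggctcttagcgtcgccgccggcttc
KIF15, chr3:44761694-44761793, + strand: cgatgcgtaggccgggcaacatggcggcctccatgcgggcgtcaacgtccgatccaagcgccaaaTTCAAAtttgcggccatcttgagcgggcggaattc
KIF16B, chr20:16573449-16573548, - strand: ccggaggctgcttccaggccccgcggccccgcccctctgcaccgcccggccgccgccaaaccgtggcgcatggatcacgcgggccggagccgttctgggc
KIF21A, chr12:39443121-39443220, - strand: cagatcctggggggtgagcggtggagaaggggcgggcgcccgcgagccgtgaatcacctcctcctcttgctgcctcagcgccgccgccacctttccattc
In the 5 printed promoters that hold both, the CCAAT word came first, and its first base lay 9 bases before that of the CHR word in KIF23, 24 in KIF4A, 25 in KIF11, 35 in KIF18A and 39 in KIF22. KIF15, the mitotic kinesin with the highest ratio, and KIF2C, the one with the lowest, were both among those without the pair.

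Transport kinesins went both ways. Of 13 measured, ratios were above 1 for 6 and below it for 7, and 5 intervals held 1. Past 1.5-fold, 3 were lower and 0 higher, beside 14.9% and 3.77% of all genes. A ratio above 1 was found for 47.4% of all genes. The group with the widest spread was kinesin-1, whose heavy chains are KIF5A, KIF5B and KIF5C. KIF5B is the form made in nearly all cells, and KIF5A and KIF5C are the forms known from neurons. KIF5C had 129.2 and 72.8 CPM, a ratio of 0.564 (0.542 to 0.586), or 1.77-fold lower. KIF5A was scarce, with 106 and 90 UMIs, and its ratio was 0.643 (0.480 to 0.860). KIF5B had 301.6 and 325.7 CPM, a ratio of 1.08 (1.06 to 1.10). Over all cells, the 2 neuronal forms were thus lower and the general form slightly higher. The intervals of KIF5A and KIF5C did not overlap that of KIF5B. The direction of KIF5B changed with the phase of the cells, as given below. Without KIF5C, the summed transport kinesins had a ratio of 1.03 (1.01 to 1.04), so that KIF5C alone turned the direction of the sum.

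KIF1A carries precursors of synaptic vesicles and dense-core granules in neurons and neuroendocrine cells. It had 150.2 and 138.0 CPM, a ratio of 0.919 (0.890 to 0.949). Its relatives KIF1B, which carries vesicles and mitochondria, and KIF1C had ratios of 0.996 (0.928 to 1.07) and 1.04 (0.802 to 1.35), and both intervals held 1. KIF16B, which moves early endosomes, had 8.16 and 4.80 CPM, a ratio of 0.588 (0.503 to 0.688). KIF13B had 237 and 245 UMIs, and its ratio was 0.783 (0.652 to 0.940). Over all cells, these 4 relatives of KIF1A therefore ranged from level to 1.70-fold lower. The ratio of KIF1B changed with the phase of the cells, as given below.

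Kinesin-2 is a motor of the heterotrimer type, in which KIF3A pairs with KIF3B or KIF3C, and it serves both vesicles and cilia. KIF3A had 28.7 and 30.8 CPM, KIF3B had 14.4 and 15.3 CPM, and KIF3C had 4.74 and 5.60 CPM. Their ratios were 1.07, 1.06 and 1.18, and the accessory subunit gene KIFAP3 had a ratio of 1.14 (1.06 to 1.22). All 4 subunits were a little above 1, but the intervals of KIF3B (0.956 to 1.17) and KIF3C (0.993 to 1.41) held 1. KIF21A, a motor that also restrains microtubule growth, had 93.5 and 102.8 CPM, a ratio of 1.10 (1.06 to 1.14). KIFC2, a minus-end motor known from neurons, had a ratio of 0.976 (0.861 to 1.11) over all cells.

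Cargo adaptors and light chains, a list of 22 genes of which 21 were measured, had a median log2 ratio of 0.07, with 1 gene at least 1.5-fold higher and 2 lower. The shares over all genes were 3.77% and 14.9%. The 2 lower genes of this list bind kinesin-1. FEZ1, an adaptor of kinesin-1 in axons, had 34.3 and 8.91 CPM, a ratio of 0.259 (0.235 to 0.286). The light chain gene KLC3 had 4.89 and 1.03 CPM, a ratio of 0.211 (0.156 to 0.280). The more abundant light chain genes KLC1 and KLC2 had ratios of 0.947 (0.898 to 0.999) and 1.15 (1.05 to 1.26). The higher gene was DISC1, a scaffold gene linked to kinesin-1 cargo, at 1.58 (1.46 to 1.71).

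Among the cilia and hedgehog kinesins, KIF19 was by far the most abundant. KIF19 takes microtubules apart at the tips of motile cilia and so limits their length. It had 262.8 and 293.0 CPM, a ratio of 1.11 (1.09 to 1.14). In cells thinned to 4351 UMIs each, 65.4% and 69.5% of cells had a UMI of KIF19, and unthinned 87.4% and 86.7%. The 3′ reads count molecules and not bases, so no scaling by length was made, and the order of genes by CPM still depends on how well each 3′ end is captured. Read with that limit, KIF19 and KIF5B were the 2 kinesins above 200 CPM in both libraries.

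The other members of the ciliary set were low. KIF9, known from motile cilia, had 14.5 and 16.7 CPM and a ratio of 1.15 (1.04 to 1.27). Its antisense neighbour KIF9-AS1 had 80 and 63 UMIs, and whether the counting used strand is not given in the sources used here. KIF24, which with CP110 holds back the growth of cilia at the mother centriole, had only 68 and 137 UMIs, and its ratio was 1.53 (1.13 to 2.07). Of the 4 ciliary kinesins with a promoter entry, it is also the only one whose window held both the CHR and the CCAAT word. KIF19 and KIF27 had no entry and were not searched. KIF27 had a ratio of 1.03 (0.857 to 1.23). KIF7, a regulator of hedgehog signalling at the tip of the cilium, had 31 and 22 UMIs, and its ratio was 0.537 (0.297 to 0.959), which rests on the fewest UMIs of all measured kinesins.

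Of the remaining members, KIF2A, which depolymerises microtubules both in neurons and at spindle poles, was level, with 94.7 and 96.2 CPM and a ratio of 1.02 (0.976 to 1.06). Over all cells this differed from its mitotic relative KIF2C, whose interval did not overlap it. The order of these 2 genes changed with the phase of the cells, as given below. KIF26A had a ratio of 0.944 (0.841 to 1.06). KIF12 had 142 and 42 UMIs, with a ratio of 0.224 (0.155 to 0.318) and the lowest of all kinesins. KIF25 had 102 and 58 UMIs, and its ratio was 0.431 (0.306 to 0.600). Both were weakly expressed, at 3.12 and 2.24 CPM in the library labelled untreated.

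Mitotic kinesins varied with the phase of the cell cycle far more than transport kinesins did. Cells were called G1, S or G2/M from 40 S phase and 50 G2/M genes, with the 4 kinesins of the usual G2/M list removed, in 3892 cells labelled untreated and 6012 labelled treated that had at least 4351 UMIs. In the library labelled untreated, mitotic kinesins summed to 107 CPM in cells called G1, 189.9 CPM in S and 878 CPM in G2/M, an 8.21-fold range from G1 to G2/M. In the library labelled treated they summed to 132, 245 and 906 CPM, a 6.87-fold range. Transport kinesins summed to 775, 713 and 879.5 CPM in the first library and to 682, 702 and 790.2 CPM in the second, or 1.13-fold and 1.16-fold from G1 to G2/M. The phase calls rest on genes that are known to be expressed with these kinesins, so the rise is a description and not a test.

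Single members differed in how steeply they rose. KIF20B had 13.3 CPM in G1, 18.3 CPM in S and 139 CPM in G2/M in the library labelled untreated, and 10.8, 25.8 and 143 CPM in the second library. Of the members with enough UMIs in G1 for a ratio of phases, KIF2C rose most, at 2.95, 9.53 and 138 CPM and at 2.36, 17.1 and 111 CPM, although its level in G1 came from only 8 and 7 UMIs. KIF14, with 3 UMIs in G1 labelled untreated and so no ratio there, went from 1.11 to 56.4 CPM. KIF22 was the flattest of the mitotic group, at 59.4, 81.3 and 147 CPM and at 79.6, 97.4 and 161 CPM. Of the transport kinesins, KIF5B was somewhat higher in G2/M, at 406 CPM against 258 CPM in G1 in the library labelled untreated. KIF1A went the other way, at 123 CPM in G2/M against 164 CPM in G1 and 166 CPM in S in the same library. KIF19 was highest in G1, at 403 and 443 CPM, and had 237 and 255 CPM in G2/M.

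**Figure D2:**
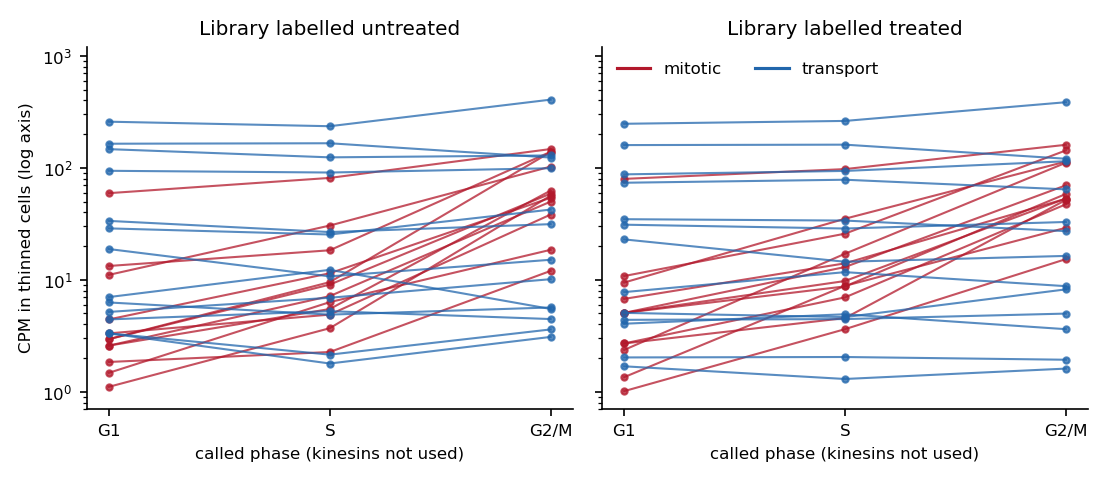
Each line joins the CPM of 1 mitotic (red) or transport (blue) kinesin in thinned cells called G1, S and G2/M, on a log axis, for each library; members under 50 UMIs in all or with no UMI in a phase are left out. Every red line is higher in G2/M than in G1, least so for KIF22 at 2.48-fold and 2.02-fold, while the blue lines run both ways, up to 1.96-fold for KIF16B labelled untreated, and KIF5B is the highest line in both panels.

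The share of cells called G2/M was 34.4% (32.9% to 35.9%) and 47.5% (46.2% to 48.8%). This share was higher in the same library as the mitotic kinesins. Within cells called G2/M, their summed ratio was 1.03 (0.998 to 1.07), 8 of 12 were above 1 and KIF2C, KIF14, KIF4A and KIF11 were below, where 49.5% of all genes measured in those cells were above, and the median log2 ratio was 0.11. Within cells called S, the summed ratio was 1.29 (1.21 to 1.37), and 12 of 12 were above 1, where 53.3% of genes were. Within cells called G1, the summed ratio was 1.23 (1.06 to 1.44), although only 3 mitotic kinesins had at least 50 UMIs, and 1 of them, KIF22, was above 1, where 52.8% of genes were. Calls near a border shift with the scoring: with each library scored alone, the G2/M shares were 35.6% and 43.0%.

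Taken one by one in cells called G2/M, KIF15 was still 1.57 (1.27 to 1.97) and KIF23 was 1.19 (1.05 to 1.35), whereas KIF2C was 0.802 (0.735 to 0.876) and KIF20B was 1.03 (0.946 to 1.12). KIF2C thus turned to the other direction there, after a ratio of 1.79 (1.37 to 2.36) in cells called S. Its relative KIF2A was 1.16 (1.04 to 1.30) in G2/M and 0.940 (0.860 to 1.03) in S. Of the transport kinesins, KIF5C was lower in every phase, with ratios of 0.501 (0.423 to 0.593) in G1, 0.631 (0.576 to 0.692) in S and 0.498 (0.450 to 0.551) in G2/M. KIF5B was 0.958 (0.863 to 1.06) in G1, 1.11 (1.05 to 1.18) in S and 0.948 (0.902 to 0.996) in G2/M. KIF16B was 0.645 (0.431 to 0.962) in S and 0.493 (0.340 to 0.717) in G2/M. KIF1A was between 0.972 and 0.976 in all 3 phases, closer to 1 than over all cells. KIF1B was 1.08 (0.789 to 1.48) in G1, 1.13 (0.947 to 1.35) in S and 0.775 (0.660 to 0.911) in G2/M. KIFC2 was 0.953 (0.729 to 1.25) in S and 1.60 (1.07 to 2.45) in G2/M. KIF9 was 0.822 (0.600 to 1.12) in G1 but 1.53 (1.21 to 1.94) in S and 1.84 (1.31 to 2.65) in G2/M.

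Counted per cell at equal depth, more cells of the library labelled treated held mitotic kinesins. A cell had no UMI of any mitotic kinesin in 36.8% (35.3% to 38.3%) of cells labelled untreated and in 26.6% (25.5% to 27.7%) of cells labelled treated. At least 5 different mitotic kinesins were found in 7.45% (6.65% to 8.32%) and 10.7% (9.94% to 11.5%) of cells. Among cells called G2/M these shares were 21.1% (19.0% to 23.4%) and 21.7% (20.2% to 23.3%), which could not be told apart at this depth. For transport kinesins, 4.70% and 4.82% of cells had none. No cell type that lacks these genes was at hand, so the part of free RNA in such shares could not be gauged.

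**Figure D3:**
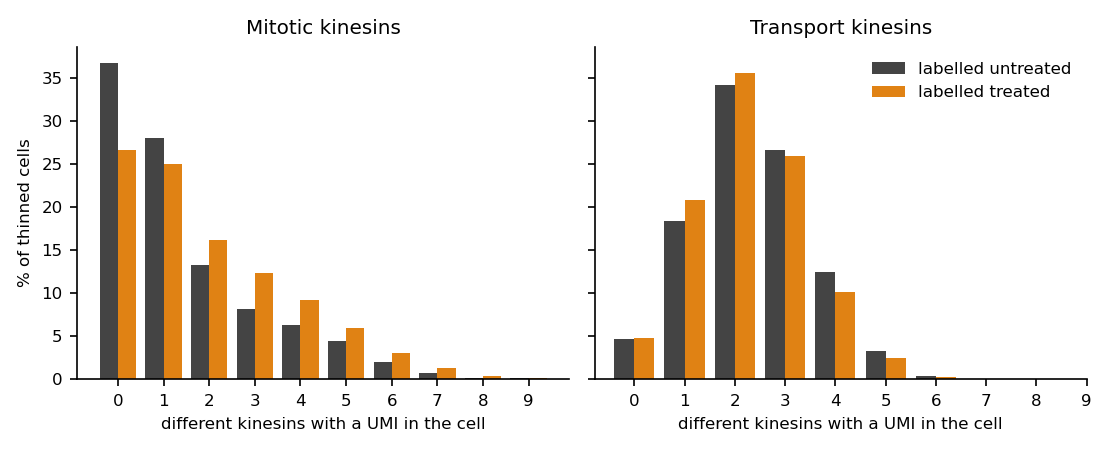
Bars give the percent of thinned cells (4351 UMIs each) in which a given number of different mitotic or transport kinesins had a UMI, for the library labelled untreated (grey) and labelled treated (orange). The mitotic panel shifts to higher numbers in the library labelled treated, with 26.6% against 36.8% of cells at 0, while the transport panels nearly coincide.

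Single genes gave the same picture at equal depth. KIF5C had a UMI in 42.0% of thinned cells labelled untreated and 26.3% of those labelled treated, and unthinned in 70.2% and 45.1%. KIF5B had one in 69.2% and 73.2%, and unthinned in 89.1% and 88.3%. KIF20B had one in 18.8% and 25.1%, and unthinned in 34.4% and 39.9%. Variance over mean of the thinned counts, which is near 1 where molecules are spread evenly over cells, was 1.49 and 1.26 for KIF2C and 1.46 and 1.37 for KIF20B. It was 1.08 and 1.04 for KIF5C, 1.21 and 1.11 for KIF5B and 1.34 and 1.23 for KIF19. Not every mitotic kinesin was above KIF5C in this measure, as KIF18B had 0.997 and 0.987. KIF18B, however, had a UMI in only 2.39% and 3.81% of thinned cells, a level at which this measure can show little spread.

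The genes most like the summed mitotic kinesins over cells were cell cycle genes. Over 3892 cells labelled untreated, Pearson's r on log counts was 0.66 for the ubiquitin-conjugating enzyme gene UBE2C, 0.62 for CENPF, 0.60 for CDKN3 and TOP2A, 0.59 for CKS1B, 0.58 for HMGB2, 0.56 for AURKA and 0.55 for CCNB1. Over 6012 cells labelled treated it was 0.66 for UBE2C, 0.63 for HMGB2, 0.62 for TOP2A, 0.60 for CENPF, 0.58 for CKS1B, 0.55 for CDKN3 and 0.54 for TPX2 and NUSAP1. For the summed transport kinesins the highest values were 0.16 and 0.11, both for CENPF. Labelled untreated, UBE2C, AURKA, CKS1B, CCNB1, ARL6IP1, CCNB2 and ASPM came next, the first at 0.15. Labelled treated, DLGAP5, CKS1B, ASPM, AURKA, TOP2A, UBE2S and TPX2 came next, the first at 0.11. All of these values were weak, and nothing is read from them. Between 2 mitotic kinesins the highest r was 0.32 and 0.23, for KIF2C with KIF20B in each library, and between 2 transport kinesins it was 0.05 and 0.04. Between a mitotic and a transport kinesin it was 0.19 and 0.14, for KIF2C with KIF5B in each library. The median r over such mixed pairs was 0.01 and -0.002, against 0.14 and 0.12 between 2 mitotic kinesins. KIF5B had r of 0.23 and 0.19 with the summed mitotic kinesins. The points of each correlation share a library, a depth and the same cells.

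Clusters of cells, found within each library on genes other than kinesins and named here by number and leading genes, placed the members further. The numbers do not match between libraries. In the library labelled untreated, mitotic kinesins summed to 1060.0 CPM in cluster 3, led by CCNB1, CCNB2, DEPDC1, NUF2 and CDC20, and to 992 CPM in cluster 5, led by PIF1, UBE2C, PLK1, CENPF and CDK1. They had 736 CPM in cluster 6, led by HIST1H4C, HIST1H1B, HIST1H1C, HIST1H1E and HIST2H2AC. They had 259 CPM in cluster 4 (SOX2, HIST1H2BD, C1orf63, CREBRF, AVIL) and 254 CPM in cluster 0 (ASF1B, CCNE1, TCF19, KIAA0101, C1QL1). The lowest were cluster 1 (IGLL5, PTGIR, SFN, ESPL1, CYBA) with 136 CPM and cluster 2 (KRTAP17-1, ID1, H1F0, GADD45G, HECW2) with 86.9 CPM. Mitotic kinesins were thus highest in the clusters led by mitotic and histone genes.

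In the library labelled treated, cluster 1, led by PIF1, PLK1, CENPA, UBE2C and ASPM, had 1258 CPM, above cluster 2 (CCNB1, CCNB2, ARL6IP1, CDC20, DEPDC1) with 899 CPM. Cluster 0, led by HIST1H4C, HIST1H1B, HIST1H1C, HIST1H1E and HIST2H2AC, had 749 CPM, and cluster 5 (CTNNB1, SPC24, RP11-538P18.2, HNRNPH1, PTPRS), with a median of only 4503 UMIs per cell, had 707 CPM. Cluster 4 (NUPR1, C1QL1, SFN, S100A14, CCNE1) had 263 CPM, cluster 3 (AVIL, SNHG10, RP11-304L19.5, DCN, HOTAIRM1) 163 CPM and cluster 6 (CAMK2B, SOX3, SLC7A4, RGS16, DLL3) 141 CPM. KIF4A and KIF23, a pair chosen after their values were seen, differed in where they were high. KIF4A was higher in the CCNB1-led than in the PIF1-led cluster of both libraries, at 88.7 against 63.6 CPM and at 84.5 against 76.6 CPM. KIF23 was higher in the PIF1-led one, at 76.5 against 66.8 CPM and at 107 against 46.2 CPM.

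KIF5C was lower in every cluster of the library labelled treated than in any cluster of the library labelled untreated. Its range over 7 clusters was 116.7 to 160.3 CPM in the first library and 55.5 to 82.4 CPM in the second. Of 34 measured kinesins, only KIF5C and KIF12 had ranges over clusters that did not overlap between the libraries, beside 2.94% of all 13958 genes with at least 50 UMIs. Both lay lower in the library labelled treated, as did 1.96% of all genes. For KIF12 these were 1.09 to 4.83 CPM and 0 to 0.967 CPM, from few UMIs. KIF19 ran from 187.2 CPM in cluster 0 to 457.7 CPM in cluster 2 of the library labelled untreated. There it was next highest in the PIF1-led cluster 5, at 325 CPM. Cluster 1 of that library, also low in mitotic kinesins, had 238 CPM of KIF19. In the library labelled treated it had 461.4 CPM in cluster 3 and 407.4 CPM in cluster 6, the 2 clusters lowest in mitotic kinesins. Clusters of 1 library are not replicates.

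**Figure D4:**
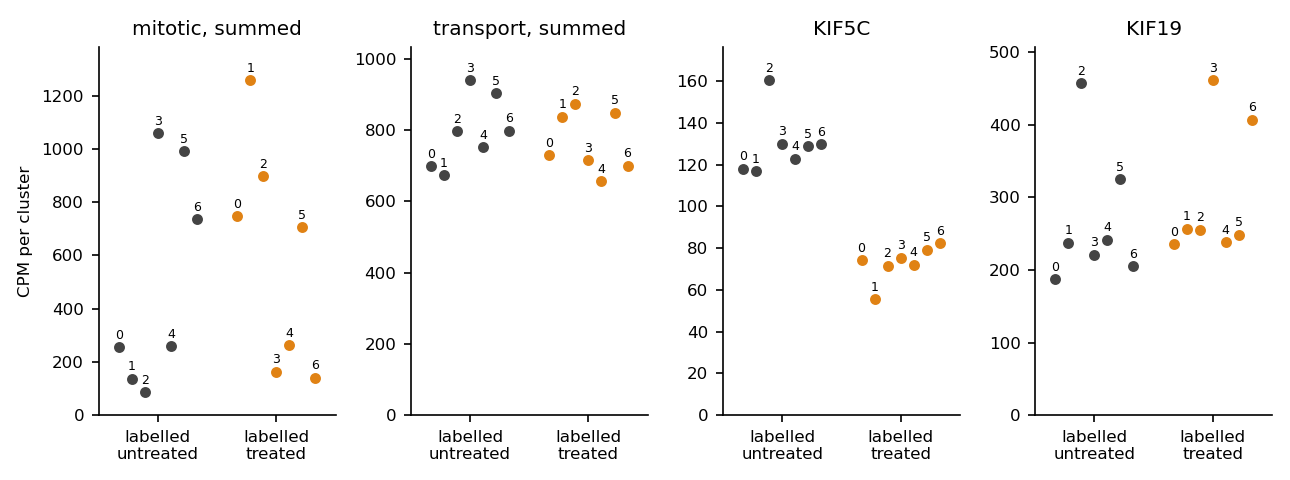
Points give the CPM of the summed mitotic kinesins, the summed transport kinesins, KIF5C and KIF19 in each of 7 clusters per library, numbered within each library; clusters were found without kinesins. KIF5C lies between 116.7 and 160.3 CPM in all clusters labelled untreated and between 55.5 and 82.4 CPM in all clusters labelled treated, while KIF19 overlaps.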

How the data were processed

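Per the labels' protocols, WaGa cells were made into single-cell libraries with 10x Genomics 3′ chemistry. Cell Ranger, Seurat and the build hg19 are named in the submitters' processing notes, and which annotation and cell filters applied is not given in the sources used here. On deposit the authors put both samples in 1 table on a natural log scale, in which each value is the natural log of 1 plus the counts per 10000 counts of the cell, as found from the values. The smallest back-transformed value of a cell was taken as 1 UMI, and 100% of values were then whole within a relative tolerance of 1e-06. No cell filter or doublet caller was applied. UMIs were summed per library and divided by its total (CPM). Ratios have 95% Clopper-Pearson intervals, and the interval code was tested on simulated data. No test between conditions was possible with 1 library each.

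The members and lists were chosen with earlier results of these data known. As the rule for names, every member is named, with MKI67, TOP2A, CCNB1 and CDKN1A for reference; of partner lists, those at least 1.5-fold apart and the highest and lowest; of cells, the 8 most correlated genes among those with a UMI in at least 5% of thinned cells, and the 5 leading genes of each cluster. Other genes named were picked after their values were seen. Phase calls used scanpy 1.11.5 on cells thinned to 4351 UMIs by drawing without replacement (this depth is the 10th percentile in the library of lower depth), leaving out 245 cells labelled untreated and 667 labelled treated. Clusters used 2000 variable genes, 20 components, 15 neighbours and Leiden resolution 0.5. Computation used Python 3.11.15, numpy 2.4.6, scipy 1.17.1 and pandas 2.3.3. Alternatives changed the scaling, the weight of cells, the pseudocount, the gene minimum and the cells used.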

Additional observations from a re-analysis of the deposited data

How the results depend on the processing

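No paired analysis was possible because each group had 1 library, so none could be left out either. The 12 mitotic kinesins kept ratios above 1 under both other scalings, equal weight for each cell, a pseudocount of 1 CPM, thinning, and without the 5% of cells with the most UMIs. Their median log2 ratio, 0.35 over all cells, was -0.23 in cells called G1 (3 members measured), 0.49 in S and 0.11 in G2/M. In cells of 7000 to 12000 UMIs, chosen after seeing the data, it was 1.03, and mitotic minus transport was 1.07. Median depth was 14905 and 14283.5 UMIs in the mitotic clusters 3 and 5 labelled untreated, and 11480 and 8124 in clusters 1 and 2 labelled treated; the cause was not tested. Kinesins at least 1.5-fold higher numbered 1 with the pseudocount, 1 without the deepest cells, 4 in thinned cells and 13 in that window, against 2. The pseudocount shrinks ratios of weakly expressed genes by construction. Scored alone, 43.0% of cells labelled treated were called G2/M, against 47.5%. KIF5C stayed lower in every setting run, from -1.01 in cells called G2/M to -0.66 in S on the log2 scale. Depth limits KIF7, KIF24, KIF5A, KIF25 and KIF12, each with few UMIs. The transport median, -0.01, was 0.02 with scaling by the median ratio, and KIF1B, at 0.996, changed side of 1 under both scalings.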

Other observations

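Cytoplasmic dynein is the motor that walks toward the minus end of microtubules, opposite to most kinesins, and works with dynactin. The list held 27 genes of dynein, dynactin and their adaptors, all measured. Ratios (labelled treated over labelled untreated) were above 1 for 15 and below it for 12, where 47.4% of all 13958 measured genes were above. Of the 27, 0 were past 1.5-fold upward and 2 downward, beside 3.77% and 14.9% of all genes. The median log2 ratio was 0.04. The heavy chain gene DYNC1H1 had 103.5 and 124.7 CPM, a ratio of 1.20 (1.16 to 1.25), and the light intermediate chain gene DYNC1LI1 was highest at 1.34 (1.28 to 1.40). The 2 lower genes were DYNC1I1, an intermediate chain known from neurons, at 0.303 (0.188 to 0.476) from 70 and 28 UMIs, and the light chain gene DYNLL2, at 0.666 (0.640 to 0.693) from 115.3 and 76.7 CPM. DYNC1I2, the intermediate chain made in most cells, had a ratio of 1.27 (1.21 to 1.33). As with KIF5C and KIF5B over all cells, the form known from neurons was lower and the general form higher. KIF5B, however, was below 1 in cells called G1 and G2/M. This is a description of 2 pairs picked after their values were seen.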
